A study of Rattus norvegicus with 9 samples.

Results

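The hemoglobin and erythroid genes of the rat lumbar spinal cord were followed here: 6 genes of the 34890 loci in the expression table, taken by name (Hba-a1, Hba-a2, Hbb, LOC100134871, Alas2 and Slc4a1), each listed once. They were picked because a comparison of treated with untreated injured rats in these same samples was already known to show them higher, so their values in that comparison, and which of them pass the study's threshold there, are given as a description that supports nothing. RNA was sequenced from the L3-L6 cord of 9 wild-type Sprague Dawley rats, and the study's methods say that the animals were male and that the side ipsilateral to surgery was used. The JA group held 3 sham-operated rats given oral saline. The SNI group held 3 rats with spared nerve injury, in which the tibial and common peroneal branches of the sciatic nerve are tied and cut while the sural branch is spared, also given saline. The PLM group held 3 rats with the same injury given paeoniflorin at 20.65 mg/mL and liquiritin, labelled 3.98 mg/mL in replicate 1, 3.99 mg/mL in replicate 2 and 3.100 mg/mL in replicate 3, where the methods give the first value for the whole group. Neither the labels nor the methods describe perfusion of the animals before the cord was taken.

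Values are TPM, the usual length-scaled share of all transcripts in a sample, with a fixed total, so levels can be set side by side between genes. TPM keeps no read depth, and the depth and counting error of each sample are therefore unknown. The samples carried the defining transcripts of lumbar cord: Mbp, the myelin basic protein of oligodendrocytes, was at 31362 to 39893 TPM and the posterior patterning gene Hoxc10 at 31.01 to 46.9 TPM. JA replicate 3 stood apart from the other sham samples in the genes described here, and results that rest on it are given with and without it.

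Hemoglobin is a tetramer of alpha and beta globin chains, each holding a heme group, and it fills the red blood cell. Its mRNA is made in erythroid precursors in the bone marrow and is carried into the circulation by reticulocytes, the youngest red cells, so blood left in the vessels of a tissue brings globin mRNA into the tissue's RNA. Hba-a1 and Hba-a2 encode alpha chains, Hbb and LOC100134871 beta chains, Alas2 the erythroid form of the enzyme that starts heme synthesis, and Slc4a1 band 3, the anion exchanger of the red cell membrane. In bulk tissue more cells of a type and more RNA per cell cannot be told apart.

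All 6 names matched a RefSeq gene of the GRCr8 assembly, in which LOC100134871 is now named Hbbl1. RefSeq places Hbb-bs, Hbbl1 and Hbb in that order on chromosome 1 and Hba-a3, Hba-a2 and Hba-a1 in that order on chromosome 10. Whether promoter sequence plays a part in the levels seen here was not tested. For reference, the 120 bases before the annotated start of the 4 globin members and of Hbb-bs, a further adult beta gene, are shown. They come from RefSeq (GRCr8, minus strand for all 5), at chr10:15842581-15842700 for Hba-a1, chr10:15829139-15829258 for Hba-a2, chr1:167663722-167663841 for Hbb, chr1:167650236-167650355 for LOC100134871 and chr1:167631631-167631750 for Hbb-bs. Capitals mark 3 short strings on either strand: the CACCC string (read as GGGTG on the other strand), the CCAAT string (read as ATTGG there) and the ATAAA string of the TATA box (read as TTTAT there).
Hba-a1: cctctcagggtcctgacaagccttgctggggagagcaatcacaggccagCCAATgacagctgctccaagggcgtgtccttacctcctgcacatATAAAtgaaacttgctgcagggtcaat
Hba-a2: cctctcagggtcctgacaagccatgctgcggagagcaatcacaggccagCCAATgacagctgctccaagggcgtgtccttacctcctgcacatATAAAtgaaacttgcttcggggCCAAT
Hbb: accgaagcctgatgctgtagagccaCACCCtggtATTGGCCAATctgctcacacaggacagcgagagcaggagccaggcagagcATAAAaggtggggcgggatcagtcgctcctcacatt
LOC100134871: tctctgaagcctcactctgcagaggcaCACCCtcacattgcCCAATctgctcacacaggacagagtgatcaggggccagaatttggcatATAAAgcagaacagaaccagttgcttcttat
Hbb-bs: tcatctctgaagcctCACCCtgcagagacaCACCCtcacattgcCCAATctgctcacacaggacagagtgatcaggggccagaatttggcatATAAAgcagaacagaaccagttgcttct

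The CCAAT string and the ATAAA string occurred in all 5 windows, and the CACCC string in the 3 beta windows but in neither alpha window. Of 33469 promoter windows of the same length, 29.5% held CACCC, 19.9% CCAAT, 21.5% ATAAA and 0.956% all 3. The GATA string, also searched as its reverse complement TATC, was in none of the 5 and in 31.4% of all windows. A match is a string of letters and not a binding site. The alpha windows were identical at 115 of 120 positions. The windows of LOC100134871 and Hbb-bs, set 3 bases apart, were identical at 115 of 117 positions, whereas Hbb and LOC100134871, set 2 bases apart, shared 69 of 118. These windows are not transcribed, and transcript sequences were not compared here. Duplicated globin genes are known to be close in their coding parts too, so the split of TPM between Hba-a1 and Hba-a2, or among the beta genes, is taken as uncertain, and sums over copies are given beside single genes.

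The globins were among the most abundant transcripts of these samples. By mean TPM over the 9 samples, Hba-a1 ranked 22nd of 34890 loci, Hbb 35th, Hba-a2 40th and LOC100134871 264th. Hba-a1 was at 2797, 2805 and 5737 TPM in JA replicates 1 to 3, at 3339, 3646 and 2179 TPM in SNI and at 5595, 3954 and 5789 TPM in PLM. The lowest PLM sample exceeded the highest SNI sample, and JA replicate 3 lay within the PLM range. The group means were 3779 ± 1695, 3054 ± 774 and 5113 ± 1008 TPM for JA, SNI and PLM (SD, n = 3).

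Hba-a2, the other alpha gene, was at 1252, 1272 and 2653 TPM in JA, 1375, 1601 and 947 TPM in SNI and 2613, 1817 and 2743 TPM in PLM. Its samples fell in the same pattern, with PLM above SNI throughout and JA replicate 3 level with PLM. Hba-a1 held 2.11 to 2.43 times the TPM of Hba-a2 in all 9 samples.

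Hbb, the main adult beta gene of this table, was at 1615, 1298 and 3464 TPM in JA, 1876, 2007 and 986 TPM in SNI and 2053, 2201 and 2619 TPM in PLM. The margin between groups was narrow, since the lowest PLM sample was 2053 and the highest SNI sample 2007 TPM, and the highest Hbb of all was in sham-operated JA replicate 3. The group means were 2126 ± 1169.9, 1623 ± 556 and 2291 ± 294 TPM (SD, n = 3).

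LOC100134871, the second beta gene, was at 201 TPM in JA replicate 1, 369.95 TPM in replicate 2 and 467 TPM in replicate 3. It was at 239.7, 242 and 294 TPM in SNI and at 1019, 299.7 and 811 TPM in PLM. PLM replicates 1 and 3 were far above every other sample, while PLM replicate 2 exceeded the highest SNI sample only slightly and was below JA replicates 2 and 3.

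Alas2 was at 11.3, 11.4 and 21.55 TPM in JA, 12.5, 11.5 and 6.32 TPM in SNI and 17.5, 15.0 and 24.9 TPM in PLM. The order was again that of the alpha globins: PLM above SNI without overlap and JA replicate 3 among the PLM samples. Slc4a1 was near the limit of the table, at 0.60, 0.58 and 1.59 TPM in JA, 1.79, 0.74 and 0.42 TPM in SNI and 1.91, 0.41 and 2.47 TPM in PLM. Its lowest value of all was in PLM replicate 2, and its groups overlapped in every comparison.

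**Figure D1:**
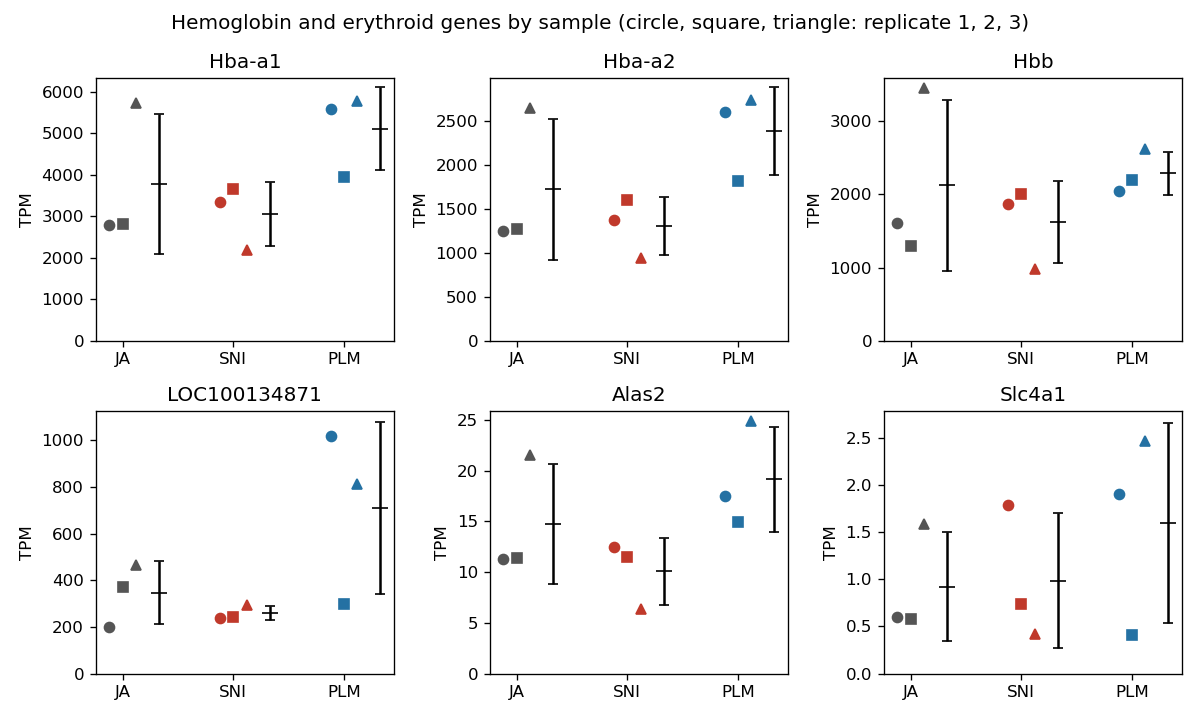
TPM of the 6 hemoglobin and erythroid genes in each sample, on linear axes from 0, with the mean and SD of 3 samples beside each group; circles, squares and triangles are replicates 1, 2 and 3. For all but Slc4a1 the 3 PLM points lie above the 3 SNI points, and JA replicate 3 lies within the PLM range for the alpha genes and Alas2 and above it for Hbb.

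Thus 5 of the 6 members had every PLM sample above every SNI sample, against 1.59% of the 15474 loci tested in that comparison; since the members were chosen on it, nothing is read from the count. In the comparisons with JA no member's groups were separate in either direction. Over all loci, 12.1% had SNI above JA throughout and 1.66% below it, and 2.00% had PLM above JA throughout and 15.7% below it. For PLM the overlap rests partly on JA replicate 3. Without it, every PLM sample was above the other JA samples for Hba-a1 (at least 3954 against at most 2805 TPM) and Hba-a2 (1817 against 1272). The same held for Hbb (2053 against 1615) and Alas2 (15.0 against 11.4). LOC100134871 and Slc4a1 still overlapped, as did every member between SNI and JA. The share of all loci without JA replicate 3 was not computed, so nothing is read from this.

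The TPM of the 4 globin members were then summed, since a sum depends less on how reads were split between copies. Hbb-bs and the other globin rows are not in this sum. Summed globin was 5866, 5745 and 12322 TPM in JA, 6829, 7495 and 4405 TPM in SNI and 11279.9, 8272 and 11962 TPM in PLM. These transcripts made up 0.441% (SNI replicate 3) to 1.23% (JA replicate 3) of all TPM. JA replicate 3 held 2.12 times the mean of the other JA samples, a spread within the sham group larger than the 1.68-fold ratio of the PLM mean (10505 ± 1964 TPM) to the SNI mean (6243 ± 1626 TPM; SD, n = 3).

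The 3 comparisons ask whether nerve injury changed these transcripts (SNI with JA), whether treatment of injured rats did (PLM with SNI), and how treated rats stood against sham (PLM with JA). On the log2 scale summed globin was 0.29 lower in SNI than in JA (difference -0.29, SE 0.43, exact two-sided permutation p = 0.6, n = 3 against 3) and 0.48 higher in PLM than in JA (SE 0.40, exact two-sided permutation p = 0.4). With 3 against 3 samples the smallest p such a test allows is 0.10. PLM was 0.77 above SNI (SE 0.29), given with no test. With every globin row of the table in the sum the 3 differences were -0.30, 0.48 and 0.78. Without JA replicate 3 the difference of SNI from JA turned to 0.068, so its direction rests on that sample, and that of PLM from JA rose to 0.84. The latter was 0.30 without JA replicate 1 and 0.29 without JA replicate 2.

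Fitted across all loci with limma on log2(TPM + 1), no member passed the study's threshold (unadjusted p under 0.05 and a log2 fold change above 1 in size) in SNI against JA, where 0.688% of 15557 loci did. The fitted log2 fold changes were -0.25 for Hba-a1, -0.34 for Hba-a2, -0.32 for Hbb, -0.34 for LOC100134871 and -0.49 for Alas2 (SE 0.29 to 0.42), with limma's Benjamini-Hochberg adjusted p between 0.622 and 0.765. Slc4a1 had a mean under 1 TPM in those samples and was not tested. No locus of the whole table passed the adjusted threshold there with limma, against 1104 at an unadjusted p under 0.05.

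In PLM against JA no member was called, against 0.938% of 15349 loci (0.0195% at an adjusted p under 0.05). LOC100134871 had the largest fitted difference, 0.94 (SE 0.51), then Hba-a2 at 0.54 (SE 0.32) and Hba-a1 at 0.50 (SE 0.31), and Hbb the smallest, 0.23 (SE 0.35). Alas2 was at 0.39 (SE 0.28) and Slc4a1 at 0.37 (SE 0.39), and limma's adjusted p lay between 0.520 and 0.812 for the 6 genes. Both comparisons with JA share 3 samples with the one the members were chosen on, and the high JA replicate 3 enters both.

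In PLM against SNI the fitted log2 differences were 1.28 (SE 0.43) for LOC100134871, 0.88 (SE 0.23) for Hba-a2, 0.88 (SE 0.28) for Alas2, 0.76 (SE 0.23) for Hba-a1, 0.56 (SE 0.27) for Hbb and 0.35 (SE 0.41) for Slc4a1. The median over all 15474 loci was -0.21, so relative to it the members stood 0.56 (Slc4a1) to 1.49 (LOC100134871) higher. As a description, LOC100134871 was the 1 member past the study's threshold, which 1.65% of loci passed and 0.226% passed as higher. It was no longer past it without PLM replicate 1 or PLM replicate 3 and also without SNI replicate 1, when Alas2 was called in its place, or SNI replicate 2, when Hba-a2 was. Centring each sample on its median brought the members called to 4, LOC100134871, Alas2, Hba-a1 and Hba-a2, with the difference of each member above 0 under every scaling tried.

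**Figure D2:**
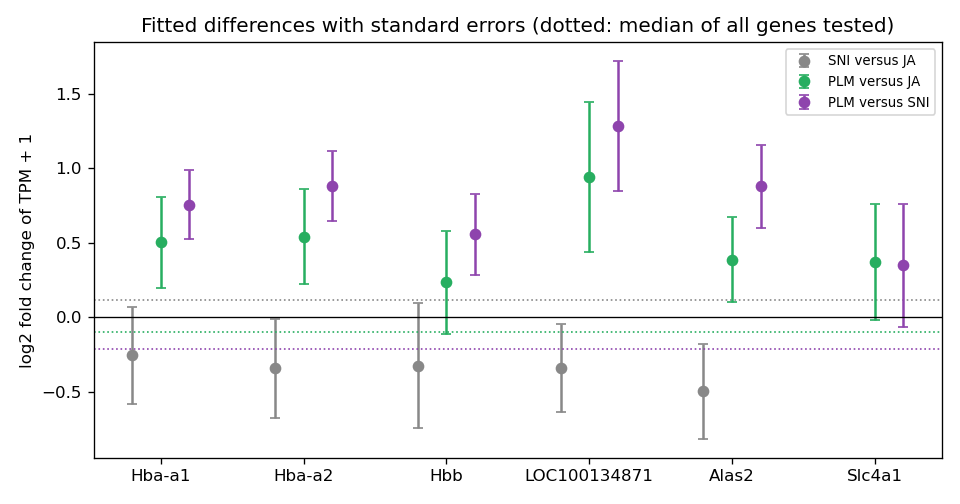
Fitted log2 fold change of TPM + 1 for each gene in the 3 comparisons, with standard errors from limma; dotted lines are the medians over all loci tested (0.12, -0.10 and -0.21 for SNI with JA, PLM with JA and PLM with SNI). The points for PLM with SNI run from 0.35 (Slc4a1) to 1.28 (LOC100134871), those for SNI with JA lie below 0, and Slc4a1 has no point there because it was not tested.

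The beta genes did not keep a fixed proportion. LOC100134871 amounted to 12.5, 28.5 and 13.5% of Hbb in JA, 12.8, 12.1 and 29.8% in SNI and 49.7, 13.6 and 31.0% in PLM. There were 4 samples at 28.5 to 49.7% (JA replicate 2, SNI replicate 3, PLM replicates 1 and 3) and 5 at 12.1 to 13.6%, with both kinds in every group. This split was noticed after the values were seen and does not follow the groups. Hbb-bs fell into the same 2 sets of samples, at 21.4 to 28.8% of Hbb in the 4 and 8.30 to 13.4% in the other 5. LOC103694855, a globin row that matched no RefSeq gene and whose identity was not established, did so by a narrow margin, at 0.707 to 1.99% against 0.494 to 0.650%. LOC103694857, another such row, did not, at 0.519% in SNI replicate 3 and 6.69% in SNI replicate 2. These shares all have Hbb below the line, and Hbb was itself 25.0 to 31.8% of alpha globin in the 4 samples and 38.1 to 41.3% in the other 5. Part of the agreement between rows can therefore come from Hbb. LOC100134871 kept the 2 sets against alpha globin, at 9.07 to 12.4% and 4.62 to 5.57%. SNI replicate 3, which had the lowest summed globin of all, thus had a high share of LOC100134871, and JA replicate 3, which had the highest, a low one.

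**Figure D3:**
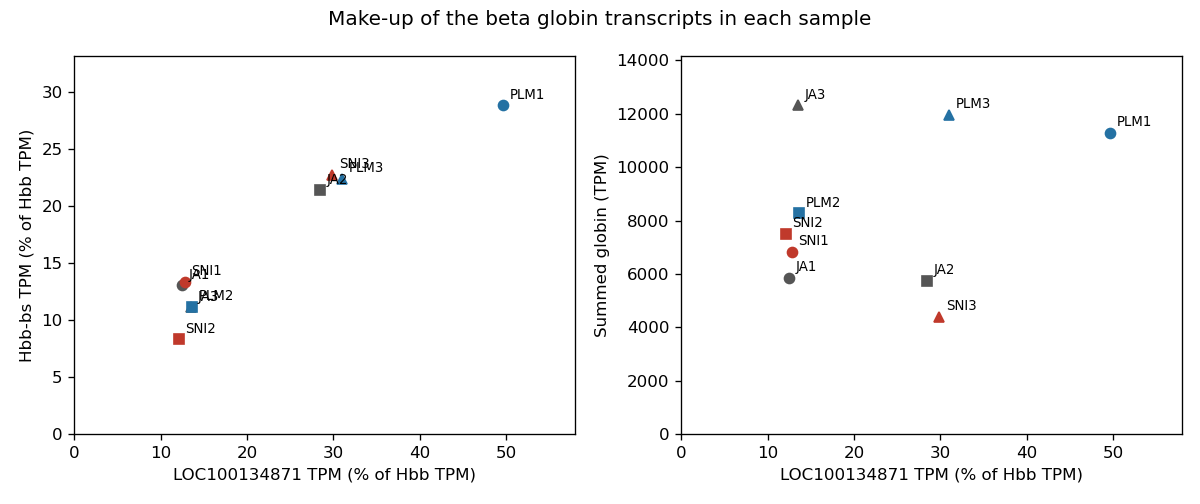
Left, Hbb-bs against LOC100134871, each as a percent of Hbb TPM, in each sample; right, summed globin TPM against the same share of LOC100134871. PLM replicates 1 and 3, JA replicate 2 and SNI replicate 3 lie at 28.5 to 49.7% of Hbb and the other 5 samples at 12.1 to 13.6%, at both high and low summed globin.

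Set against the alpha globins, LOC100134871 was at 4.98 to 9.07% in JA, 4.62 to 9.41% in SNI and 5.19 to 12.4% in PLM, so the groups overlapped on this ratio. The means were 6.54 ± 2.21, 6.37 ± 2.64 and 9.04 ± 3.64% (SD, n = 3), PLM being 1.42 times SNI, and the highest SNI value was in SNI replicate 3, one of the 4 samples with the high share. The alpha to beta ratio varied less, at 2.13 to 2.67 over the 9 samples, but it fell into the same 2 sets, at 2.44 to 2.67 in the 4 samples and 2.13 to 2.33 in the other 5. With Hbb-bs added to the beta genes it was 1.94 to 2.24 and the sets overlapped. The cause of the differing make-up was not tested.

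Alas2 kept close to the globins: it was at 2.02 to 2.92 TPM per 1000 TPM of alpha globin, a coefficient of variation of 12.9% over the 9 samples. Slc4a1 varied more, at 0.0710 to 0.380 TPM per 1000 TPM of alpha globin (49.2%). Over the 9 samples the log2 level of Alas2 had a Pearson r of 0.95 with log2 summed globin (0.94 after the group means were removed), Slc4a1 0.75 and LOC100134871 0.73 (0.51 after removal). LOC100134871 is itself part of that sum. These are descriptions over 9 samples, in which each pair of values comes from the same library and so shares its scaling.

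The rest of the globin list gave further values. Hbb-bs was at 211, 278 and 385 TPM in JA, 251, 166 and 224 TPM in SNI and 592, 246 and 587 TPM in PLM. Like LOC100134871 it was high in PLM replicates 1 and 3, and PLM replicate 2 lay under the highest SNI sample. It passed the study's threshold in PLM against SNI (log2 difference 1.06, SE 0.36, limma adjusted p = 0.0895), as did LOC103694855 (1.19, SE 0.45, limma adjusted p = 0.113). Hba-a3, a further alpha gene, ranged from 0 to 35.65 TPM and was listed at 0 in SNI replicate 3 and PLM replicate 3. LOC103694857, also without a RefSeq match, was at 5.11 to 152 TPM. The embryonic and fetal-type genes Hbz, Hbe2 and Hbg1 were listed at 0 in all 9 samples, Hbe1 reached 0.16 TPM and the theta gene Hbq1b 2.06 TPM. LOC100911402 was listed at 0 in all samples but 1 SNI sample, at 0.95 TPM.

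Other genes of the red cell were taken from 4 lists without the members (heme synthesis, red cell membrane, erythroid transcription factors and genes of reticulocytes), 62 names of which 58 had a row and 43 had enough expression to be tested. By the study's threshold 0 of the 43 were called in each of the 3 comparisons. In PLM against SNI, 2 of 43 were above 0, with a median of -0.19 beside -0.21 over all loci, and 7 passed limma's adjusted p of 0.05, all lower in PLM (13.9% of all loci passed it). Among them, and named after their values were seen, were Fech and Alas1 of heme synthesis, catalase (Cat) and the membrane skeleton gene Tmod1. After centring on sample medians, quantile normalization or removal of the mitochondrial genes 0 of the 7 passed, and the number above 0 became 25 of 43 with centring. In SNI against JA the list median was 0.11 (2 genes at an unadjusted p under 0.05, none adjusted, with limma) and in PLM against JA -0.07 (3 and none).

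Alas1, the housekeeping counterpart of Alas2, ran the other way from it: it was at 28.7, 22.65 and 20.9 TPM in JA, 32.2, 28.2 and 32.1 TPM in SNI and 21.0, 22.75 and 22.3 TPM in PLM. Every SNI sample was above every PLM sample, with a log2 difference of -0.47 (SE 0.08, limma adjusted p = 0.0208), or -0.22 (adjusted p = 0.208) after median centring.

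Several genes restricted to erythroid precursors were close to the limit of the table, while Ahsp was at a higher level. Those named here and beside the neutrophil genes below were chosen after their values were seen. Gata1, the erythroid and megakaryocytic transcription factor, was at no more than 0.23 TPM and Klf1, the activator of adult beta globin, at 0.52 to 1.92 TPM. The membrane genes Rhag and Epb42 reached 0.29 and 0.54 TPM. Ahsp, the chaperone of free alpha globin, was at 0.69, 2.25 and 5.58 TPM in JA, 11.95, 3.46 and 2.59 TPM in SNI and 7.41, 2.56 and 4.61 TPM in PLM. Its highest value was in SNI replicate 1, whose summed globin was 6829 TPM.

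Slc4a1 and Ahsp ordered the samples much as the sum of the neutrophil genes did. The summed TPM of 16 neutrophil rows was 52.7, 51.5 and 69.5 in JA, 232, 58.5 and 53.6 in SNI and 152, 35.7 and 131 in PLM, so that SNI replicate 1 and PLM replicates 1 and 3 were high. S100a8, an abundant neutrophil calcium-binding protein, was at 65.4 TPM in SNI replicate 1, 41.97 and 35.5 TPM in PLM replicates 1 and 3 and at most 18.2 TPM elsewhere. The list was not uniform, as Lcn2 and Csf3r show, which were named after their values were seen. Lcn2, a secreted iron-carrier protein, was highest in JA replicate 1 (11.6 TPM, with 6.69 in SNI replicate 1). The receptor gene Csf3r was highest in JA replicate 2 (2.07 TPM, with 1.38 in SNI replicate 1). Over the 9 samples the Pearson r with log2 of the neutrophil sum was 0.86 for Slc4a1, 0.82 for Ahsp, 0.92 for Epb42, 0.90 for Rhag, 0.74 for Hemgn (an erythroid nuclear protein), 0.65 for Kel (a red cell blood group protein) and 0.30 for Klf1, and it was 0.37 for Alas2 and 0.38 for summed globin. It was 0.77 for Car1, the red cell carbonic anhydrase. After the group means were removed it was 0.91 for Slc4a1, 0.58 for Alas2 and 0.50 for summed globin. The same genes had an r with summed globin of 0.49 (Ahsp), 0.56 (Epb42), 0.66 (Rhag), 0.78 (Hemgn), 0.78 (Kel), 0.54 (Klf1) and -0.04 (Car1). After removal of the group means Ahsp was at 0.72 with globin and 0.80 with the neutrophil sum. Epb42 was at 0.71 and 0.91, Rhag at 0.76 and 0.90 and Hemgn at 0.77 and 0.86. Kel was at 0.87 and 0.64 and Klf1 at 0.81 and 0.29. The differences between these r values were not tested. Rhag, Epb42 and Kel were near the limit of the table, at no more than 0.29, 0.54 and 0.49 TPM. No neutrophil gene was called in the 3 comparisons, of 9 tested. The relation of these cells to the members was not tested.

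**Figure D4:**
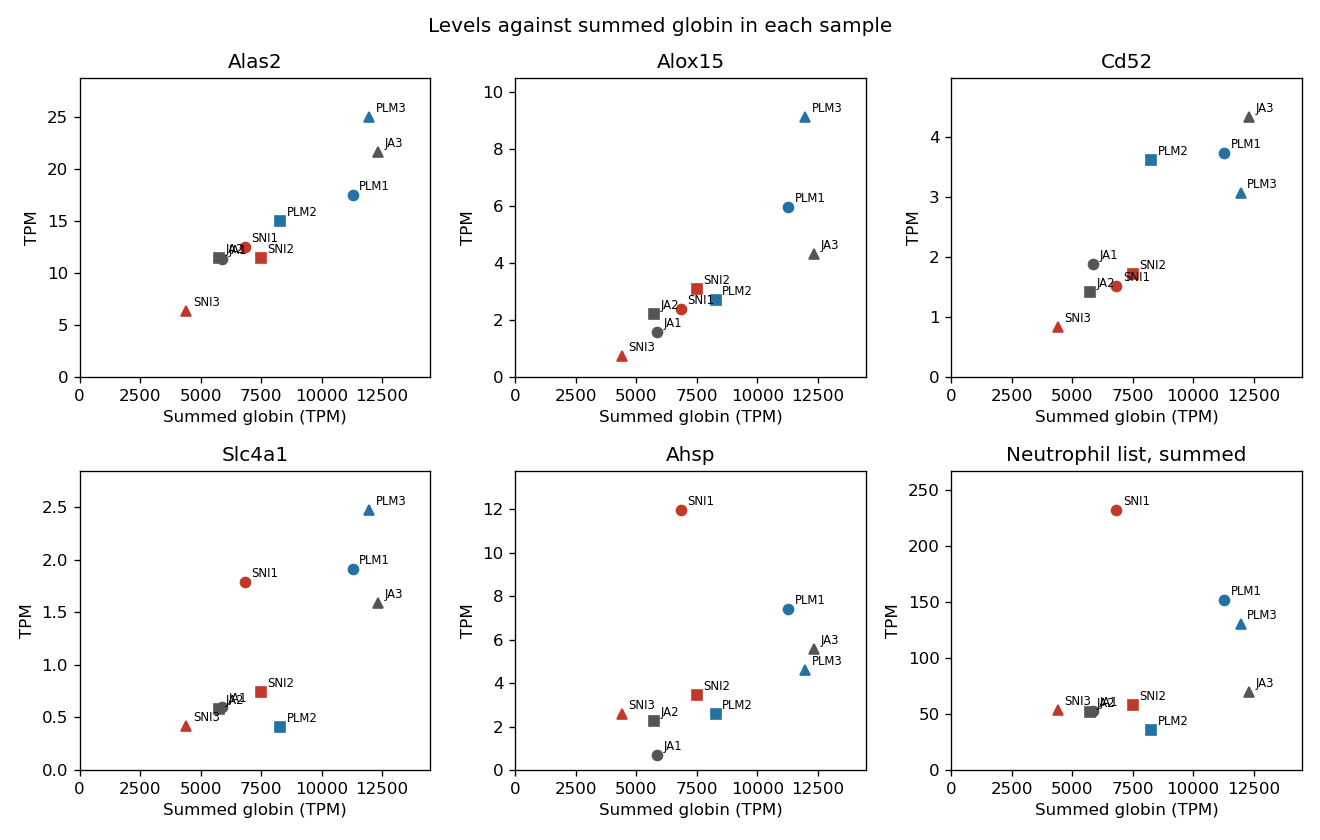
TPM of Alas2, Alox15, Cd52, Slc4a1 and Ahsp and the summed TPM of the neutrophil list against summed globin TPM, one point per sample. Alas2 follows summed globin over the range of 4405 to 12322 TPM, whereas Ahsp and the neutrophil list are highest in SNI replicate 1, at 6829 TPM of globin.

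Markers of other blood cells were low. The lymphocyte list summed to 3.08 to 6.37 TPM, with none of its 11 rows expressed enough to be tested, and the platelet list to 5.67 to 13.2 TPM, with an r of 0.53 with summed globin (0.80 after the group means were removed). The endothelial list, a measure of the vessels themselves, summed to 436 to 635 TPM with an r of -0.04 with summed globin, and none of its 11 rows was called in any comparison. The summed astrocyte markers ran opposite to summed globin over the 9 samples (Pearson r = -0.80, Spearman rho -0.63). After the group means were removed r was -0.65, and from -0.73 (Gfap) to -0.20 (Aqp4) for the single genes. The globins were chosen for a difference between PLM and SNI, which adds to the r of -0.80. The list summed to 3404, 2700.1 and 1767 TPM in JA, 3264, 3140 and 2962 TPM in SNI and 1763, 1605 and 1449 TPM in PLM, so that JA replicate 3 again stood with PLM. For 7 of its 8 genes the level was lower in PLM than in SNI by the study's threshold, which 1.65% of all loci passed in either direction. The median of all loci was -0.21 in that fit, and Aldh1l1 (-1.12) and Aqp4 (-1.19) were near the limit. The count is therefore for this scaling only. Mitochondrial protein genes took 23.7 to 26.1% of TPM in SNI, 31.3 to 32.8% in PLM and 25.3 to 32.8% in JA. The part of either in the globin differences was not tested.

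Outside the members and the globin rows, the 10 loci whose log2 levels were most like summed globin, of 13943 ranked by Pearson r over the 9 samples, were led by Alox15 (0.93) and Cd52 (0.91). The others were LOC103689986, LOC302192, Gstp1, Stmn1, Clec4a1, Bad and 2 rows of the small nuclear RNA U4 with the same values, at r between 0.85 and 0.90. Alox15, an arachidonate lipoxygenase known from reticulocytes and from some leukocytes, was at 1.59, 2.21 and 4.32 TPM in JA, 2.40, 3.11 and 0.75 TPM in SNI and 5.97, 2.69 and 9.12 TPM in PLM. JA replicate 3 was the highest sham sample and SNI replicate 3 the lowest of all, as for the alpha globins. Cd52, a surface glycoprotein of leukocytes, was at 1.88, 1.41 and 4.32 TPM in JA, 1.52, 1.71 and 0.84 TPM in SNI and 3.73, 3.61 and 3.06 TPM in PLM. Its PLM samples were above SNI throughout (log2 difference 0.94, SE 0.18, limma adjusted p = 0.0280, and 0.0545 after median centring). Cd52 was picked for its likeness to globins that were themselves chosen for a rise from SNI to PLM. That favours such a difference beforehand, so nothing is read from its p-value or the lack of overlap.

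The last question was how much of the set of genes higher in PLM than in SNI goes with the globins. By the study's threshold 35 loci were called higher, of which 24 had a gene name. LOC100134871, Hbb-bs and LOC103694855 were the globin rows among them. Removing the globin rows before the fit left 32 called, all of them among the 35. Several of the 32 had identical values, such as 3 rows of the small nuclear RNA U5, which left 29 distinct profiles. Of these, 2 had an r above 0.7 with summed globin (Alox15 and a locus without a gene name), at 0.88 and 0.62 after the group means were removed, and so did 0.454% of all profiles tested. The calls and the globin members were both chosen for a rise from SNI to PLM, which by itself raises r over the 9 samples, so nothing is read from the 2 shares. JA replicate 3 was the highest sham sample for 10 of the 29 (34.5%), compared with 18.7% of all 15425 distinct profiles tested without the globin rows. JA replicate 3 also stood with PLM in its astrocyte sum (1767 TPM). The share is thus not particular to the globins, and nothing is read from it either. Listed at 0 in every SNI sample were 11 of the 35, and 13 had no overlap between the groups. With summed globin as a covariate 78 loci were called higher, of which 8 were among the 35, and no member was called. That fit has 6 samples and a covariate that itself separates the groups, so it does not show how many calls residual blood accounts for.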

How the data were processed

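Total RNA from 9 cord samples (3 groups of 3, grouped by their titles, which call them biological replicates) was sequenced from Illumina TruSeq libraries. The authors deposited 1 table of TPM values, totalling 999999.6 to 1000000.4 per sample. Per the study's methods reads were cleaned, mapped with HISAT2 and quantified with StringTie. The submitters' processing notes name CASAVA, fastp 0.19.5 and GRCh38.p13, a human build, while the gene identifiers are of rat; the rat build is not given in the sources used here, nor whether counting used strand. Every sample column was mapped to a sample by name.

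Groups were compared in pairs with limma 3.58.1 in R 4.3.3 on log2(TPM + 1), with a variance trend, leaving out loci whose mean over the 6 samples fell under 1 TPM. A fold change on this scale understates the change of low genes such as Slc4a1. Genes were called at p under 0.05 and a log2 fold change above 1 in size, with Benjamini-Hochberg adjustment over all loci beside it. Summed globin was compared by an exact permutation test. Replicates may still share handling, so p-values measure the spread between these samples only. A count test was not used because TPM keeps no depth.

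The members and gene lists were chosen with earlier results of these data known. Named were every member and other globin row, those of the called or 3 most abundant genes of each other list that bear on the members, and the 10 loci most correlated with summed globin; other genes are said to be chosen after their values were seen, or are counted. Alternatives were a pseudocount of 0.1, no filter, a filter of 1 TPM in every sample, quantile normalization, median centring, removal of mitochondrial genes, a replicate block, one fit to the 9 samples, adjusted p alone, summed globin as a covariate, and each replicate left out.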

Additional observations from a re-analysis of the deposited data

How the results depend on the processing

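In PLM against SNI the 83 member differences refitted (all alternatives but the covariate) kept their sign. This is a description only, since the members were chosen on that comparison. All but Slc4a1 had every PLM sample above every SNI sample, so leaving out a sample could not reverse them. Single samples moved some by over 1.5 times: Hbb was 0.23 without SNI replicate 3, and Slc4a1 ranged from 0.090 (without PLM replicate 3) to 0.74 (without PLM replicate 2). In SNI against JA, leaving out each replicate in turn gave -0.48 to 0.068 for summed globin, -0.43 to 0.090 for Hba-a1, -0.52 to 0.017 for Hba-a2 and -0.61 to 0.10 for Hbb (log2), with each sign change without JA replicate 3 and, for Hbb, also without SNI replicate 3 (0.0027), and -0.69 to -0.084 for LOC100134871 and -0.66 to -0.20 for Alas2 with no sign change. In PLM against JA, Hbb ranged from -0.054 (without JA replicate 2) to 0.65, Alas2 from 0.19 to 0.68, Slc4a1 from 0.11 to 0.76, LOC100134871 from 0.59 to 1.47, Hba-a1 from 0.33 to 0.85 and Hba-a2 from 0.36 to 0.90, and the members called from 0 to 1 (LOC100134871, without PLM replicate 2), as did the red cell list genes (1 without JA replicate 3). In PLM against SNI, as a description of genes chosen there, the 1 member past the threshold became 2 with quantile normalization, 4 with median centring, 3 without mitochondrial genes, 0 at an adjusted p alone, 0 with summed globin as a covariate and 0 to 3 with replicates left out, and 7 red cell list genes passed an adjusted p alone. Of the loci called higher, 35, there were 54 with a pseudocount of 0.1, 23 with no filter, 13 with 1 TPM required in every sample, 64 with median centring, 54 without mitochondrial genes, 78 with the covariate and 21 to 42 with replicates left out, 21 without SNI replicate 1. The causes were not tested. The replicate numbers did not pair the samples (correlation of deviations -0.046 to 0.126 for the same number, -0.192 to 0.136 for others; 4 of 9 samples correlated best with their own number), and with the replicate number as a block 47 loci were called higher and 1 member, with no change in the group differences. Depth is unknown, which limits the values of low genes such as Slc4a1.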
